A study of Homo sapiens with 24 samples.

Results

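The genes described here encode 10 cytosolic reductases of carbonyls and quinones, namely the aldo-keto reductases AKR1B1, AKR1B10, AKR1C1, AKR1C2, AKR1C3 and AKR1A1, the carbonyl reductases CBR1 and CBR3, the quinone reductase NQO1 and the alkenal and prostaglandin reductase PTGR1. They were taken by symbol from the 28307 genes of the count table, and all 10 were found. The set was chosen with earlier results of these data known, so that counts of its members are descriptions. Enzymes of this kind use NADPH (NQO1 also NADH) to turn reactive aldehydes, ketones and quinones into alcohols and hydroquinones, which are less reactive and can be conjugated and exported. NQO1 carries out this step on quinones by transferring a pair of electrons at once, so that the semiquinone radical is bypassed. Several of the genes, NQO1 and the AKR1C and AKR1B10 genes above all, are textbook targets of the transcription factor NRF2, which KEAP1 holds in check until electrophiles or oxidants release it.

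RNA was sequenced from the breast cancer line SUM159 and the colon cancer line SW620. Adherent cells were exposed for 30 h to nifuroxazide (NIF), a nitrofuran antibiotic, or to its vehicle DMSO, and were sorted after the exposure by aldehyde dehydrogenase activity into a bright (ALDHbr) and a negative (ALDHneg) population. The 8 groups (2 lines, 2 populations, 2 treatments) held 3 libraries each, 24 in all, from 3 independent experiments in each line. ALDHbr cells are the population in which these lines are described as enriched in cancer stem cells, and the study asked how NIF acts on them.

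Total counts ran from 30253187 to 43127948 per library. The line labels were borne out by marker genes: 10 colon epithelial markers summed to 2097 to 2621 CPM (counts scaled to a common library size) in the SW620 libraries, and 10 mesenchymal markers summed to 12190 to 17210 CPM in SUM159 against 97.6 to 168.5 CPM in SW620. In SUM159 the colon markers summed to 7 to 40 reads in 11 libraries and to 341 reads (9.23 CPM) in ALDHbr DMSO replicate 3, whose values below are therefore given with and without it where they matter. Transcripts of ALDH1A1, the main enzyme behind the sorting assay, stood at 135 ± 27.7 CPM (SD, n = 3) in SUM159 ALDHbr DMSO cells and 0.480 ± 0.0618 CPM in ALDHneg cells, whereas in SW620 both populations carried it, at 1314 ± 51.3 and 900.5 ± 19.3 CPM.

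The members lie on 6 chromosomes (RefSeq, GRCh38.p14). AKR1C1 (chr10:4963415-4983283), AKR1C2 (chr10:4987775-5018000) and AKR1C3 (chr10:5048781-5107686) form a cluster, AKR1B1 (chr7:134442350-134459239) and AKR1B10 (chr7:134527567-134541412) are neighbours, and so are CBR1 (chr21:36070024-36073164) and CBR3 (chr21:36135079-36146562). AKR1A1 lies at chr1:45550826-45570049, NQO1 at chr16:69709401-69726560 and PTGR1 at chr9:111549722-111599647. The AKR1C genes are recent copies of one another. Over the coding sequence AKR1C1 and AKR1C2 were identical at 950 of 969 bases (98.04%), AKR1C1 and AKR1C3 at 91.43%, AKR1B10 and its neighbour AKR1B15 at 93.46%, CBR1 and CBR3 at 79.76% and AKR1B1 and AKR1B10 at 77.07%. Of all 50-base windows of the coding sequence, 53.7% in AKR1C1, 57.1% in AKR1C2, 23% in AKR1C3 and 19.8% in AKR1B10 occurred word for word in another family member, and none did in the other 6 genes. How reads that match several copies were counted is not given in the sources used here, so the split between AKR1C1 and AKR1C2 is less certain than their sum.

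The likeness of AKR1C1 and AKR1C2 extends beyond the coding sequence, which is shown because the pair is compared below. The 250 bases that precede the listed transcription start of each gene (RefSeq, GRCh38.p14, AKR1C1 at chr10:4963165-4963414 on the plus strand, AKR1C2 at chr10:5003858-5004107 on the minus strand, a start that lies inside the annotated span of AKR1C2) share an unbroken run of 245 identical bases. It is printed in lower case, and the bases outside it in capitals, each strand read 5′ to 3′.
AKR1C1: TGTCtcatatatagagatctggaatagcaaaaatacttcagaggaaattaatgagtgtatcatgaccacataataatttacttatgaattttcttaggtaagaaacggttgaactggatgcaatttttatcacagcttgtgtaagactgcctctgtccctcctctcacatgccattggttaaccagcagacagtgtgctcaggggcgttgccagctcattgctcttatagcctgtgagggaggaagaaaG
AKR1C2: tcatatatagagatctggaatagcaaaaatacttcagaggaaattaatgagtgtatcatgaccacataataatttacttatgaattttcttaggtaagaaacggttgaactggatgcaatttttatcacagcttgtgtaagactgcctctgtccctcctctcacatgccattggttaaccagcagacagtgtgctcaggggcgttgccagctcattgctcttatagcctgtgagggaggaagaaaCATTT
Windows of 300 bases around the start were on hand for 8 of the 10 members (10 windows). The core of the antioxidant response element bound by NRF2, TGACNNNGC, was found on either strand in 1 of them, that of CBR1, and in 13.3% of 35116 such windows of all genes. The windows begin 250 bases before the start, and sites farther away were not searched, so that a window without the core does not show that the gene lacks the element.

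**Figure D1:**
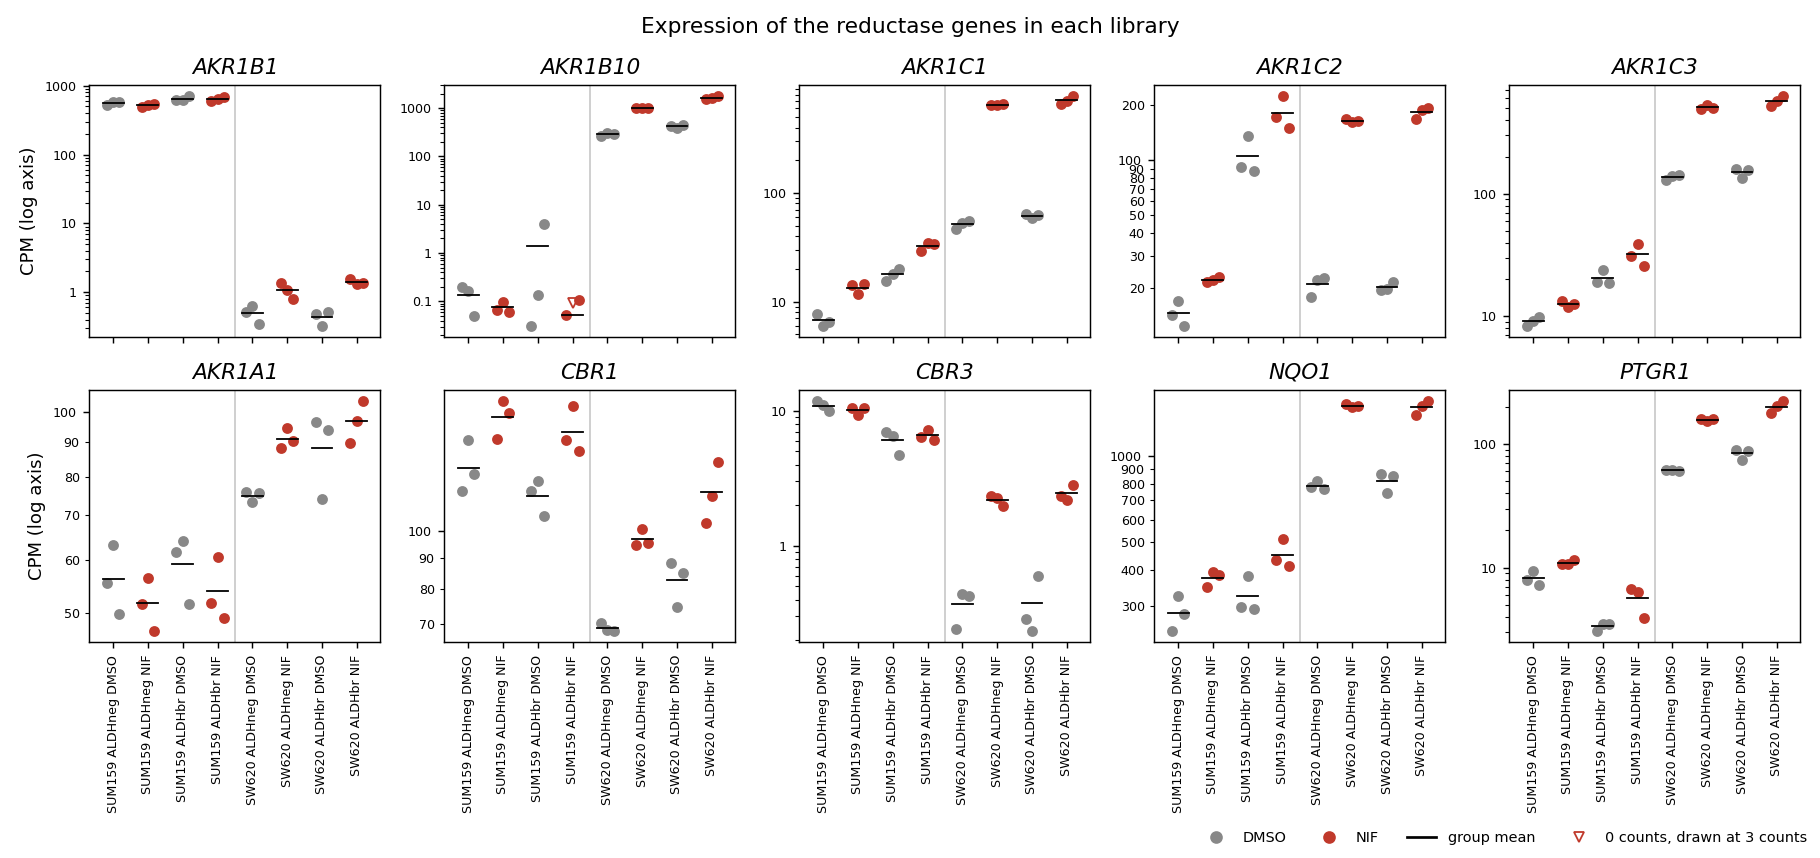
Expression of the 10 genes in each of the 24 libraries, in CPM on log axes that differ between panels, with grey points for DMSO, red points for NIF, a black line at the mean of each group of 3 and an open triangle for the library with no AKR1B10 read, drawn at 3 reads. AKR1B1 was high in SUM159 and AKR1B10 in SW620, and in SW620 the NIF points of 9 genes lay above the DMSO points of the same population, AKR1A1 in ALDHbr cells excepted.

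NIF was followed by higher expression of most of these genes in both lines, with far larger changes in SW620. The NIF concentration used in each line is not given in the sources used here, so that line and dose cannot be told apart. In SW620, 9 of 10 members rose in ALDHbr cells and 10 of 10 in ALDHneg cells, where 21.4% and 22.3% of all tested genes rose (edgeR quasi-likelihood test, Benjamini-Hochberg adjusted p under 0.05, 13953 genes). The median log2 fold change of the members was 1.80 and 1.59, against -0.01 for all genes in each population. In SUM159, 6 of the 9 members tested rose in ALDHbr cells, where 0.936% of 14953 genes rose, and 1 of 9 in ALDHneg cells, where 1.1% rose. The members' median was 0.48 and 0.40, against 0.00 for all genes. In SUM159 libraries of the same number varied together, and a fit that blocked on that number called 6 of 9 members higher in each SUM159 population, where 5.77% and 6.1% of all genes were called. No member fell in any of the 4 comparisons. AKR1B10 did not pass the filter on low counts in SUM159 and was not tested there. Because the libraries are bulk RNA of a sorted population, a change in each cell and a change in the make-up of the population cannot be told apart.

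**Figure D2:**
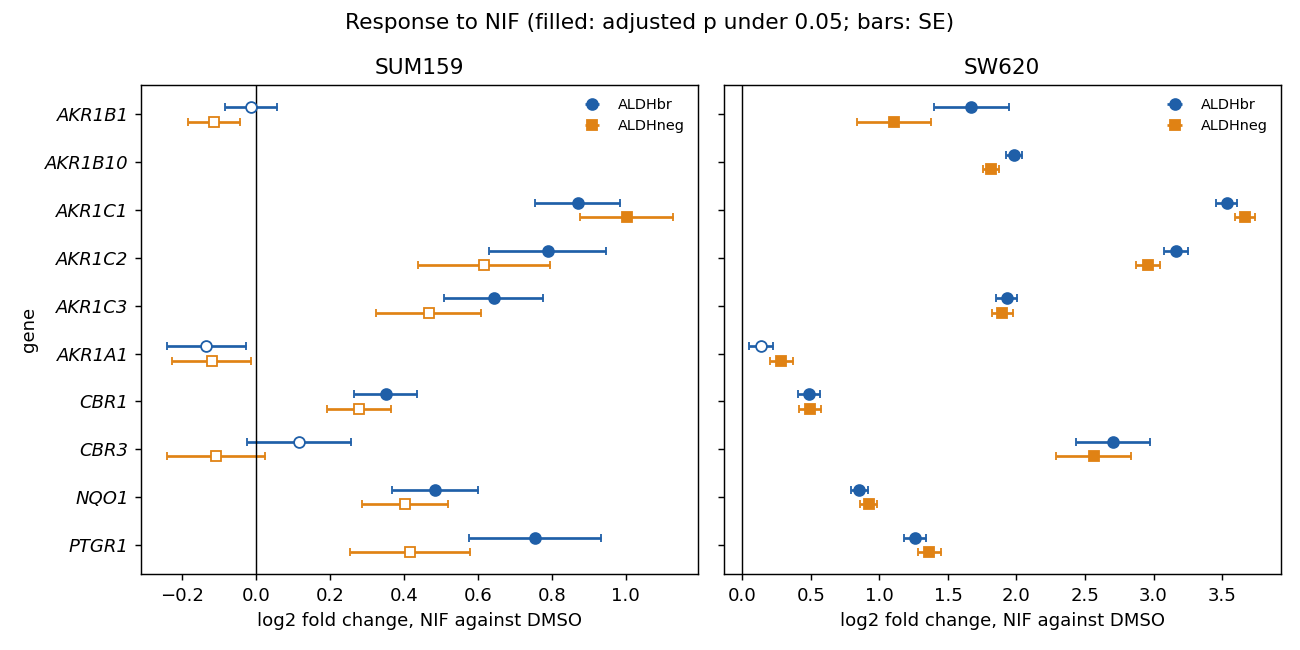
log2 fold changes of NIF against DMSO with standard errors for each gene (rows) in SUM159 (left) and SW620 (right), for ALDHbr (blue circles) and ALDHneg (orange squares), filled where the adjusted p of the test without a block is under 0.05. The axes differ between the panels, with AKR1C1 at 0.87 in SUM159 ALDHbr and at 3.53 in SW620 ALDHbr.

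AKR1B1, aldose reductase, reduces glucose to sorbitol in the polyol pathway as well as lipid aldehydes, and AKR1B10 is its close relative of the gut epithelium, which also reduces retinal. AKR1B10 in SW620 ALDHbr cells stood at 431, 389 and 437 CPM in DMSO replicates 1 to 3 and at 1578, 1642 and 1747 CPM under NIF. In ALDHneg cells it stood at 270.2, 299 and 286 CPM in DMSO and at 1020, 997 and 988 CPM under NIF. The groups did not overlap in either population, and the rise was 3.95-fold in ALDHbr cells (log2 1.98 ± 0.06 SE, edgeR adjusted p = 1.79e-11) and 3.52-fold in ALDHneg cells (1.81 ± 0.06, edgeR adjusted p = 3.12e-11).

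AKR1B10 was close to absent from SUM159. It had 0 to 7 reads in 11 libraries and 148 reads (3.98 CPM) in ALDHbr DMSO replicate 3, the library with the colon markers. In the library with no AKR1B10 read, ALDHbr NIF replicate 2, a count of 0 allows up to 0.0937 CPM (3 reads). Of the 10 colon markers, 8 had reads in ALDHbr DMSO replicate 3, from 3 reads for GPA33 to 87 for EPCAM, while CDX1 and CDX2 had none. Relative to SW620 ALDHbr DMSO cells, CLDN3, EPCAM, VIL1, LGALS4, CDH1 and KRT20 stood there at 0.272% to 0.461%, CEACAM5 (17 reads) at 2.20% and GPA33 at 3.18%, and AKR1B10 at 0.947% lay between these. The part of these reads in the AKR1B10 value was not tested.

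AKR1B1 had the opposite distribution. In SUM159 ALDHbr cells it stood at 626, 629 and 699 CPM in DMSO and 606, 646 and 685 CPM under NIF. These values overlapped, and the log2 fold change was -0.01 ± 0.07 (adjusted p = 0.956). In ALDHneg cells it was -0.11 ± 0.07 (adjusted p = 0.466). In SW620 it was close to absent and rose, from 0.481, 0.324 and 0.518 CPM (11 to 20 reads) to 1.55, 1.33 and 1.38 CPM (41 to 56 reads) in ALDHbr cells, a log2 fold change of 1.67 ± 0.27 (adjusted p = 0.000213). In SW620 ALDHneg cells it was 1.10 ± 0.27 (adjusted p = 0.00425), also without overlap.

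The AKR1C enzymes are the hydroxysteroid dehydrogenases of the family. AKR1C1 inactivates progesterone, AKR1C2 inactivates dihydrotestosterone and AKR1C3 makes testosterone and prostaglandin F, and all of them also reduce products of lipid peroxidation and quinones. AKR1C1 had the largest log2 fold change of the tested members in all 4 comparisons of NIF with DMSO. In SW620 ALDHbr cells it rose from 63.8, 58.2 and 62.3 CPM to 658, 702 and 775 CPM, 11.6-fold (log2 3.53 ± 0.07, adjusted p = 1.70e-12). In ALDHneg cells it rose from 46.9, 52.4 and 54.8 CPM to 650.1, 652 and 655 CPM, 12.7-fold (3.67 ± 0.08, adjusted p = 1.36e-12). The groups did not overlap in either population.

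In SUM159 the response of AKR1C1 was smaller and just as regular. ALDHbr cells had 15.5, 17.9 and 20.0 CPM in DMSO and 29.5, 34.6 and 33.7 CPM under NIF, a 1.83-fold rise (log2 0.87 ± 0.11, adjusted p = 0.000585). ALDHneg cells had 7.76, 5.96 and 6.44 CPM in DMSO and 14.2, 11.8 and 14.4 CPM under NIF, a 2.00-fold rise (1.00 ± 0.12, adjusted p = 0.00045). The groups did not overlap, and AKR1C1 passed the test in SUM159 under all 14 alternatives run in each population. Among these is the fit with near-identical copies summed, where the summed AKR1C reads stood in for AKR1C1 itself.

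AKR1C2 in SUM159 ALDHbr cells stood at 91.2, 136 and 87.6 CPM in DMSO and at 171, 222 and 149 CPM under NIF (log2 0.79 ± 0.16, adjusted p = 0.0126). In each group the value of replicate 2 was the highest, and within each replicate number the NIF library was above the DMSO library. In ALDHneg cells AKR1C2 stood at 14.4, 17.0 and 12.5 CPM in DMSO and 21.8, 22.1 and 23.1 CPM under NIF, without overlap (0.62 ± 0.18, adjusted p = 0.0769, and 0.63 ± 0.10, adjusted p = 0.000146, with the block). In SW620 it rose from 18.0 to 22.9 CPM over the 6 DMSO libraries to 161 to 193 CPM over the 6 NIF libraries, by 3.16 ± 0.09 in ALDHbr cells and 2.96 ± 0.09 in ALDHneg cells on the log2 scale (adjusted p = 9.53e-12 and 1.17e-11).

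AKR1C3 followed with smaller changes. In SW620 it went from 159, 135 and 157 CPM to 523, 570.1 and 624 CPM in ALDHbr cells (log2 1.93 ± 0.08, adjusted p = 2.30e-10) and rose by 1.90 ± 0.08 in ALDHneg cells (adjusted p = 2.12e-10). In SUM159 ALDHbr cells it went from 19.2, 23.9 and 18.7 CPM to 31.2, 39.2 and 25.9 CPM (0.64 ± 0.13, adjusted p = 0.0149), again without overlap. In SUM159 ALDHneg cells it was 0.47 ± 0.14 (adjusted p = 0.0935, and 0.00904 with the block). The counted reads of AKR1C1, AKR1C2, AKR1C3 and AKR1C4 were also summed to a single feature. The sum does not depend on how counted reads were split among the copies. Reads left out or counted more than once because they match several copies would still affect it. Its log2 fold change was 0.78 ± 0.13 and 0.67 ± 0.14 in SUM159 ALDHbr and ALDHneg cells (adjusted p = 0.00346 and 0.0153) and 2.66 ± 0.07 in each SW620 population (adjusted p = 1.22e-11 and 9.45e-12).

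The balance among the copies differed by line, population and treatment. The ratio of AKR1C2 to AKR1C1 reads was 5.88, 7.57 and 4.38 in SUM159 ALDHbr DMSO cells and 1.85, 2.85 and 1.94 in SUM159 ALDHneg DMSO cells. In SW620 it was 0.307, 0.342 and 0.346 in ALDHbr DMSO cells and 0.384, 0.422 and 0.419 in ALDHneg DMSO cells. The 12 SUM159 ratios (1.54 to 7.57) and the 12 SW620 ratios (0.247 to 0.422) did not overlap. Under NIF the ratio in SW620 was lower, 0.249 to 0.266 in ALDHbr cells and 0.247 to 0.256 in ALDHneg cells, while the SUM159 ALDHbr ratios of 4.43 to 6.43 overlapped those in DMSO. The ratio of AKR1C3 to AKR1C1 in SW620 went from 2.32 to 2.74 over the 6 DMSO libraries to 0.762 to 0.813 over the 6 NIF libraries. These ratios are descriptions, and 3 libraries against 3 allow no exact permutation p below 0.10.

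**Figure D3:**
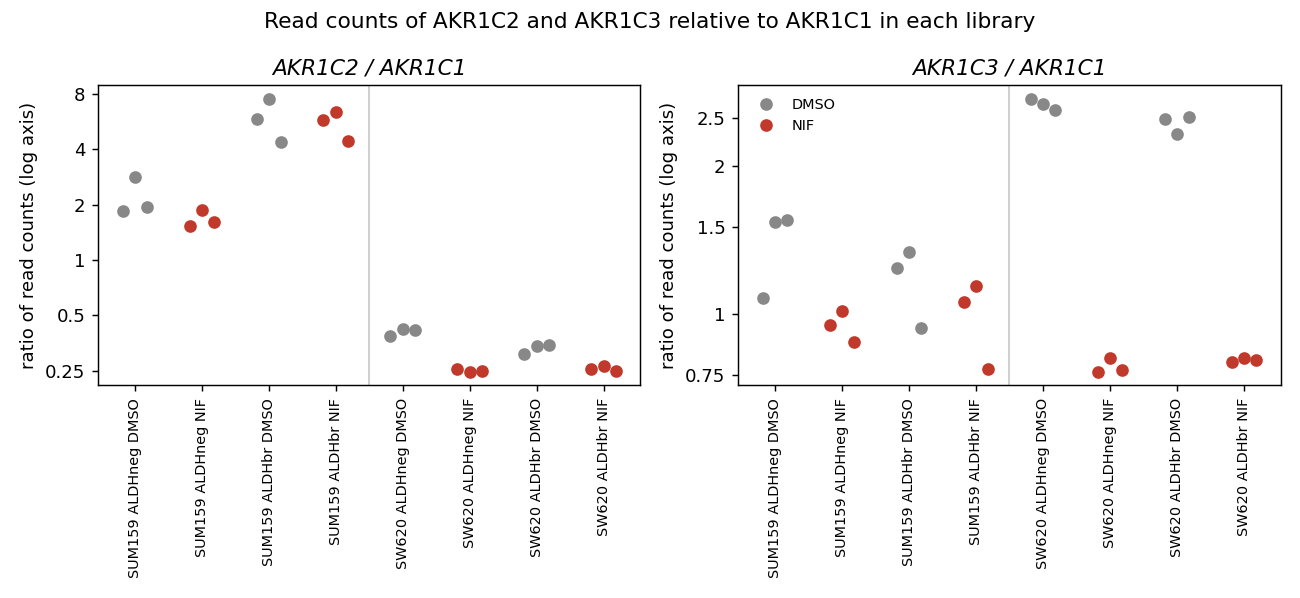
Ratio of AKR1C2 reads (left) and AKR1C3 reads (right) to AKR1C1 reads in each library, on log axes, with grey points for DMSO and red points for NIF. AKR1C2 to AKR1C1 lies above 1 in all 12 SUM159 libraries and below 1 in all 12 SW620 libraries, and the SW620 ratios of AKR1C3 to AKR1C1 fall from above 2 in DMSO to below 1 under NIF.

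AKR1A1, the general aldehyde reductase that is widely expressed and also takes part in ascorbate synthesis in other mammals, passed the test in 1 of the 4 comparisons. In SUM159 its log2 fold changes were -0.13 ± 0.11 and -0.12 ± 0.11 in ALDHbr and ALDHneg cells (adjusted p = 0.585 and 0.643). In SW620 ALDHbr cells the DMSO values of 96.7, 74.0 and 93.9 CPM overlapped the NIF values of 89.95, 96.9 and 104 CPM (0.13 ± 0.09, adjusted p = 0.227). In SW620 ALDHneg cells it rose from 75.7, 73.2 and 75.7 CPM to 88.4, 94.7 and 90.6 CPM (0.28 ± 0.09, adjusted p = 0.0149), a call that was lost without ALDHneg NIF replicate 2.

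CBR1 and CBR3 are neighbouring carbonyl reductases of the short-chain dehydrogenase family that reduce quinones, prostaglandins and anthracycline drugs. CBR3 responded strongly in SW620 from a very low level, with 0.289, 0.235 and 0.600 CPM (8 to 22 reads) in ALDHbr DMSO cells and 2.35, 2.20 and 2.83 CPM (68 to 90 reads) under NIF, a 6.52-fold rise (log2 2.70 ± 0.27, adjusted p = 2.56e-06). In SW620 ALDHneg cells it rose 5.92-fold (2.56 ± 0.27, adjusted p = 3.47e-06). In SUM159 CBR3 started higher, at 4.74 to 11.8 CPM in the 6 DMSO libraries, and the log2 fold changes were 0.12 ± 0.14 and -0.11 ± 0.13 (adjusted p = 0.741 and 0.75). CBR3-AS1, an antisense gene that overlaps CBR3, had 6 to 48 reads per library, and whether the counting used strand is not given in the sources used here.

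CBR1 moved little in size, and in the same direction everywhere. It rose by 0.48 ± 0.08 in SW620 ALDHbr cells (74.9 to 88.4 CPM in DMSO, 103 to 130.2 CPM under NIF, adjusted p = 0.000246), and by 0.49 ± 0.08 in SW620 ALDHneg cells (adjusted p = 0.000193). In SUM159 ALDHbr cells it rose by 0.35 ± 0.09, from 117, 121 and 106 CPM to 141, 161 and 136 CPM (adjusted p = 0.0374). In SUM159 ALDHneg cells it was 0.28 ± 0.09 (adjusted p = 0.096, and 0.000929 with the block), with 116 to 141.4 CPM in DMSO and 142.2 to 164 CPM under NIF.

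NQO1 is the main cytosolic quinone reductase. In SW620 ALDHbr cells it went from 865, 742 and 852 CPM to 1391, 1492 and 1553 CPM, a 1.81-fold rise (log2 0.85 ± 0.06, adjusted p = 1.06e-07). In SW620 ALDHneg cells it went from 782, 820.2 and 765 CPM to 1513, 1480 and 1492 CPM, a 1.89-fold rise (0.92 ± 0.06, adjusted p = 4.05e-08). All 6 NIF libraries lay above all 6 DMSO libraries, and the fold was smaller than that of the AKR1C genes.

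In SUM159 ALDHbr cells NQO1 went from 297, 383 and 293 CPM to 434, 513 and 413 CPM (log2 0.48 ± 0.12, adjusted p = 0.0345), and in ALDHneg cells from 246, 326 and 281 CPM to 349.9, 395 and 385 CPM (0.40 ± 0.12, adjusted p = 0.0755, and 3.19e-05 with the block). Replicate 2 was the highest library of each of these 4 groups, and each NIF library lay above the DMSO library of its own number. The groups did not overlap in either population.

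PTGR1 reduces the double bond of reactive alkenals such as hydroxynonenal and inactivates leukotriene B and prostaglandins. In SW620 ALDHbr cells it went from 90.1, 73.7 and 87.5 CPM to 178, 202 and 222 CPM (log2 1.26 ± 0.08, adjusted p = 3.84e-08), and in ALDHneg cells from 61.5, 61.8 and 60.1 CPM to 160.1, 152 and 159 CPM (1.36 ± 0.08, adjusted p = 1.53e-08). In SUM159 ALDHbr cells it went from 3.09, 3.51 and 3.47 CPM to 6.70, 6.38 and 3.94 CPM (0.75 ± 0.18, adjusted p = 0.0317), where NIF replicate 3 lay just above the DMSO values. In SUM159 ALDHneg cells it was 0.42 ± 0.16 (adjusted p = 0.197, and 0.0366 with the block).

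The count of 6 members in SUM159 ALDHbr cells rested on several libraries. It was 3 without NIF replicate 1 and 1 without NIF replicate 2, DMSO replicate 1 or DMSO replicate 3, the last being the library with the colon markers and the member left in these being AKR1C1. Without DMSO replicate 3 the log2 fold changes were 0.96 for AKR1C1, 0.67 for AKR1C2, 0.58 for AKR1C3, 0.30 for CBR1, 0.42 for NQO1 and 0.78 for PTGR1. Of all genes, 70 were called higher in that fit, against 140 with all libraries. In SUM159 ALDHneg cells the count of 1 was 3 without DMSO replicate 2. For the fits without another library, the number of all genes called is not given here. A loss or gain of members in them is thus not to be read as particular to the members.

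NIF responses were also compared between the populations of a line. No member differed between ALDHbr and ALDHneg cells of SUM159 or of SW620 by edgeR (adjusted p of at least 0.9999 and 0.914), where 0% and 0.00717% of all genes did, none had an unadjusted p under 0.05, and DESeq2 called 0 in each line. The differences in log2 fold change (ALDHbr minus ALDHneg) ran from -0.13 for AKR1C1 to 0.34 for PTGR1 in SUM159 and from -0.15 for AKR1A1 to 0.57 for AKR1B1 in SW620. The widest normal 95% interval reached 0.471 to either side of its value in SUM159 and 0.825 in SW620, for PTGR1 and CBR3 respectively, and the intervals of the other members were narrower.

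Between the lines the NIF response did differ. In a fit of all 24 libraries, 5 of the 9 members tested within both lines had a larger response in SW620 than in SUM159 in ALDHbr cells, where 12.4% of 16271 genes did, and 8 of 9 in ALDHneg cells, where 11.9% did. Unlike the 9 members, some of these 16271 genes were not tested within both lines. In ALDHbr cells the 5 members were AKR1C1 (log2 difference 2.66 ± 0.13), CBR3 (2.59 ± 0.30), AKR1C2 (2.38 ± 0.20), AKR1B1 (1.68 ± 0.24) and AKR1C3 (1.29 ± 0.15). NQO1 at 0.37 ± 0.14 (adjusted p = 0.0667, and 0.00521 with the block) and PTGR1 at 0.51 ± 0.19 (adjusted p = 0.0598, and 0.0409 with the block) did not pass the test without a block. CBR1, at 0.13 ± 0.12 and 0.22 ± 0.12 in ALDHbr and ALDHneg cells (adjusted p = 0.514 and 0.236), passed it in neither population. Without SUM159 ALDHbr DMSO replicate 3 the difference for NQO1 was 0.44 (adjusted p = 0.0273) and 6 members passed. Of all genes, 1765 had a larger response in SW620 in that fit, against 2018 with all libraries.

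In ALDHneg cells the difference was 2.68 ± 0.29 for CBR3, 2.67 ± 0.14 for AKR1C1, 2.35 ± 0.21 for AKR1C2, 1.44 ± 0.16 for AKR1C3, 1.22 ± 0.24 for AKR1B1, 0.95 ± 0.17 for PTGR1, 0.53 ± 0.14 for NQO1 and 0.41 ± 0.15 for AKR1A1. The call for AKR1A1 (adjusted p = 0.0457) was lost in 11 of 18 alternatives, among them the fits without any 1 of the 6 SW620 libraries. No label ties a SUM159 library to an SW620 library of the same run. An offset shared by all libraries of a line drops out of these differences, while an offset that differs by treatment does not. Line cannot be told apart from such an offset, nor from the dose of NIF. The paper lists final drug concentrations by cell line, and that of NIF is not given in the sources used here.

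The ALDHbr and ALDHneg populations of SUM159 differed in these genes with DMSO alone. In DMSO, 4 of 9 members were higher and 2 lower in ALDHbr cells, where 23% of all genes differed, and under NIF again 4 were higher and 2 lower, where 21.9% differed. With the block the counts were 5 higher and 3 lower in DMSO, where 36% of genes differed, and 5 and 2 under NIF, where 35.2% differed. AKR1C2 showed the largest difference, 7.19-fold in DMSO (log2 2.85 ± 0.18, adjusted p = 2.71e-08) and 8.11-fold under NIF (3.02 ± 0.17, adjusted p = 1.30e-08), and its lowest ALDHbr value in DMSO, 87.6 CPM, was above its highest ALDHneg value in either treatment, 23.1 CPM. AKR1C1 was 2.65-fold and AKR1C3 2.24-fold higher in ALDHbr DMSO cells (log2 1.41 ± 0.12 and 1.16 ± 0.14, adjusted p = 9.57e-07 and 2.17e-05).

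AKR1B1 was 1.16-fold higher in ALDHbr DMSO cells of SUM159 (log2 0.21 ± 0.07, adjusted p = 0.0412), a small difference whose call was lost without ALDHbr DMSO replicate 1 or 3 or ALDHneg DMSO replicate 1 or 3. PTGR1 and CBR3 ran the other way, as did CBR1 with the block (log2 -0.15, adjusted p = 0.0295, and 0.228 without it). PTGR1 stood at 3.09 to 3.51 CPM in ALDHbr and 7.25 to 9.44 CPM in ALDHneg DMSO cells (log2 -1.29 ± 0.18, adjusted p = 7.035e-05). CBR3 stood at 4.74 to 6.92 CPM and 9.91 to 11.8 CPM (-0.85 ± 0.14, adjusted p = 0.000314). NQO1 was 0.19 ± 0.12 higher in ALDHbr DMSO cells (adjusted p = 0.28, and 0.0125 with the block), and AKR1A1 was 0.07 ± 0.11 (adjusted p = 0.681).

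In SW620 the populations were closer. In DMSO, 3 of 10 members were higher in ALDHbr cells (5.45% of all genes were), namely AKR1B10 (log2 0.56 ± 0.06, adjusted p = 4.45e-05), PTGR1 (0.45 ± 0.08, adjusted p = 0.00345) and AKR1C1 (0.26 ± 0.07, adjusted p = 0.0316). Under NIF, AKR1B10 (0.73 ± 0.06, adjusted p = 6.32e-06) and PTGR1 (0.35 ± 0.08, adjusted p = 0.0185) were higher, 2 of 10, against 3.41% of all genes. The AKR1C1 call was lost without ALDHbr DMSO replicate 1 or 3 or ALDHneg DMSO replicate 1 or 2, and the summed AKR1C reads gave 0.15 ± 0.07 (adjusted p = 0.164). Without ALDHbr DMSO replicate 2, which had the lowest value of its group for 9 of the 10 members, 6 members were higher in DMSO, the additional ones being AKR1A1 (0.33), CBR1 (0.32) and AKR1C3 (0.19). Of all genes, 2626 were called higher in that fit, against 760 with all libraries, so that the gain was not particular to the members. The PTGR1 call under NIF was lost without any 1 of 5 of the 6 libraries, ALDHbr NIF replicate 1 excepted.

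**Figure D4:**
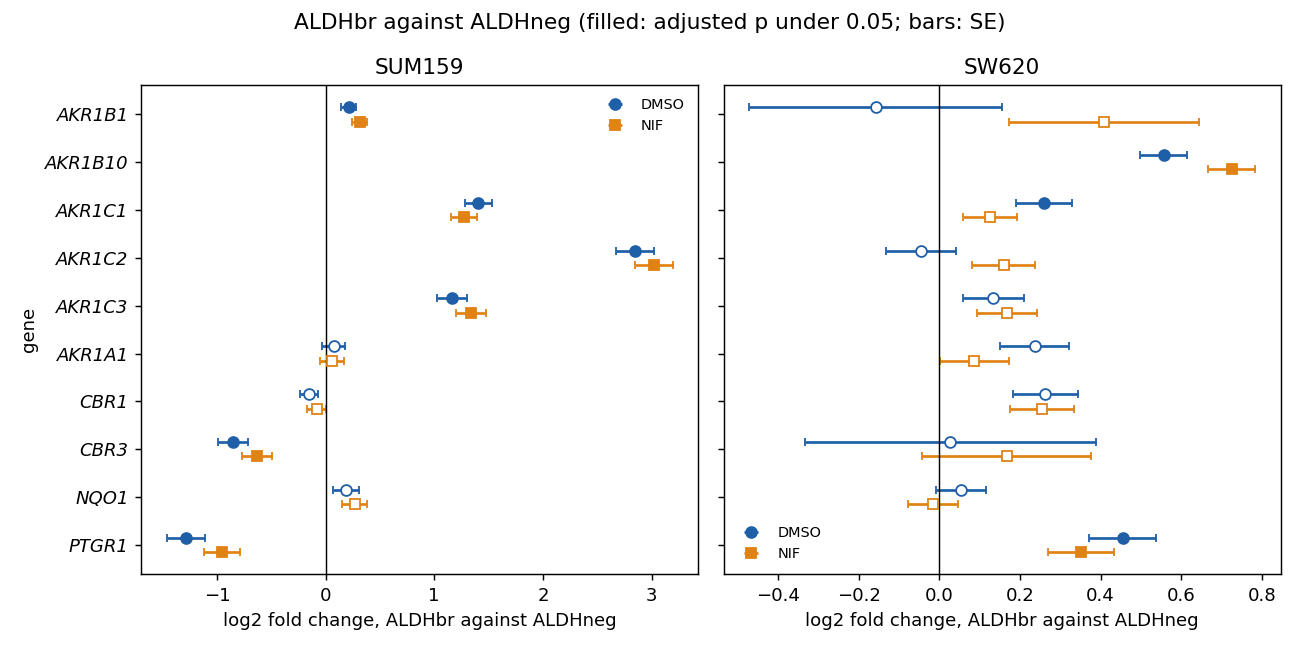
log2 fold changes of ALDHbr against ALDHneg cells with standard errors for each gene in SUM159 (left) and SW620 (right), under DMSO (blue circles) and NIF (orange squares), filled where the adjusted p of the test without a block is under 0.05. In SUM159 AKR1C2 reaches 2.85 and 3.02 while PTGR1 and CBR3 lie below 0, and in SW620 AKR1B10 leads at 0.56 and 0.73.

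With DMSO alone the lines differed most in AKR1B1, which was high in SUM159, and in AKR1B10, which was high in SW620. In DMSO all 10 members differed between SW620 and SUM159 in each population, as did 81.3% of 16271 genes in ALDHbr cells and 81.2% in ALDHneg cells, so that the counts say little about these genes. Line and processing cannot be told apart in these levels. AKR1B1 had 651 ± 41.5 CPM in SUM159 ALDHbr and 0.441 ± 0.103 CPM in SW620 ALDHbr cells, each line scaled on its own, a log2 difference (SW620 minus SUM159) of -10.32 ± 0.14 in the joint fit. AKR1B10 had 419 ± 26.0 CPM in SW620 ALDHbr DMSO cells. Its fitted difference there was 8.29 ± 0.40 with all libraries and 12.43 without SUM159 ALDHbr DMSO replicate 3, and at so few SUM159 reads it depends on the small count that the fit adds.

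PTGR1 was higher in SW620 by 4.82 ± 0.14 in ALDHbr and 3.08 ± 0.12 in ALDHneg cells on the log2 scale, AKR1C3 by 3.05 ± 0.12 and 4.08 ± 0.12, AKR1C1 by 1.965 ± 0.10 and 3.11 ± 0.11, NQO1 by 1.52 ± 0.10 and 1.65 ± 0.10 and AKR1A1 by 0.76 ± 0.10 and 0.60 ± 0.10. CBR3 was lower in SW620 (-3.82 ± 0.23 and -4.70 ± 0.22), and so was CBR1 (-0.29 ± 0.09 and -0.70 ± 0.09). AKR1C2 was lower in SW620 ALDHbr cells (-2.18 ± 0.15) and higher in SW620 ALDHneg cells (0.71 ± 0.15), whereas the summed AKR1C reads were higher in SW620 in both (0.88 ± 0.11 and 2.96 ± 0.12). Scaling by library size alone moved the median of all genes in these comparisons by -0.15 and -0.17, and no member changed direction with it.

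The surrounding pathway was read from lists of genes chosen with earlier results of these data known, so that their counts are descriptions. They are to be read against the shares of all genes that fell under NIF, 21.9% and 22.7% in SW620 ALDHbr and ALDHneg cells and 2.23% and 2.2% in SUM159 (7.56% and 7.08% with the block), beside the shares that rose, 21.4% and 22.3% in SW620 and 0.936% and 1.1% in SUM159 (5.77% and 6.1% with the block). Of 22 other NRF2 targets, 21 rose in each SW620 population and none fell, with medians of 1.02 and 1.16 on the log2 scale. SLC7A11, the cystine importer, rose by 2.72 ± 0.17 and 2.57 ± 0.17 there, and ABCC2, an exporter of glutathione conjugates, by 2.30 ± 0.12 and 2.35 ± 0.13. In SUM159, 13 rose in ALDHbr and 10 in ALDHneg cells and none fell (18 rose and 1 fell in each with the block), with medians of 0.37 and 0.32. The gene that fell with the block was ABCC2 in ALDHbr cells (log2 -0.40 without it) and ABCC3 in ALDHneg cells (-0.29), named after their values were seen. SLC7A11 stood at 0.13 ± 0.13 and 0.43 ± 0.13 in SUM159 (adjusted p = 0.666 and 0.0882, and 0.206 and 9.75e-05 with the block). HMOX1, heme oxygenase, rose by 1.89 ± 0.22 and 1.42 ± 0.22, and OSGIN1, an oxidative stress growth inhibitor, by 0.79 ± 0.15 and 0.83 ± 0.15.

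Among NRF2 itself and 9 of its partners and regulators, 8 of 10 rose and 1 fell in each SW620 population. SQSTM1, the autophagy adaptor that binds KEAP1, rose by 1.67 ± 0.06 and 1.74 ± 0.06, MAFF, a small partner of NRF2, by 0.88 ± 0.07 and 1.19 ± 0.07, and RBX1, a subunit of the ubiquitin ligase, fell by 0.31 and 0.29 on the log2 scale. In SUM159, SQSTM1 rose in ALDHbr cells (0.42 ± 0.07) and stood at 0.23 ± 0.07 in ALDHneg cells (adjusted p = 0.119, and 0.00268 with the block). NFE2L2, the gene of NRF2, fell by 0.44 in ALDHbr and 0.37 in ALDHneg cells of SUM159, and no other gene of the list was called there without the block. With it 3 rose in each population, SQSTM1, KEAP1 and MAFK (named after their values were seen), and 1 fell in ALDHbr and 2 in ALDHneg cells, MAFF and NFE2L2.

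The other reductases did not follow as a block. Of 8 other aldo-keto reductases, 6 were tested in SW620, where 1 rose and 3 fell in each population, AKR1E2 by 0.47 ± 0.18 and 0.75 ± 0.18 upward, AKR7A3 by -0.56 ± 0.07 in each and AKR7L by -0.54 ± 0.11 and -0.61 ± 0.12, and none of 5 tested was called in SUM159. Of 13 other carbonyl and quinone reductases tested in SW620, 4 rose and 5 fell in ALDHbr cells and 4 rose and 6 fell in ALDHneg cells. DHRS9, a retinol dehydrogenase of the short-chain family, rose by 3.13 ± 0.09 and 2.92 ± 0.09, and DHRS2 changed by -1.13 ± 0.10 and -0.62 ± 0.10. In SUM159, 14 were tested, and HSD11B1, which regenerates cortisol, fell by 2.03 and 2.42 on the log2 scale in ALDHbr and ALDHneg cells, while AIFM2, an NADPH-dependent quinone reductase of the plasma membrane, rose in ALDHbr cells (0.37 ± 0.08) and stood at 0.25 ± 0.08 in ALDHneg cells (adjusted p = 0.109, and 0.00675 with the block). These were the 2 calls in ALDHbr and HSD11B1 the 1 call in ALDHneg cells, against 2 higher and 2 lower and 1 higher and 2 lower with the block.

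Of the enzymes known to reduce nitro groups or quinones by single electrons, 4 of 8 tested rose in each SW620 population, TXNRD1 (thioredoxin reductase, which is also on the list of NRF2 targets) by 1.66 ± 0.06 and 1.69 ± 0.06 and XDH (xanthine dehydrogenase) by 1.21 ± 0.24 and 1.15 ± 0.19. CYB5R4 fell by 0.21 in SW620 ALDHbr cells. In SUM159 TXNRD1 rose by 0.51 ± 0.09 and 0.52 ± 0.09 and AOX1, aldehyde oxidase, fell by 0.43 and 0.26, 1 gene each way of 9 tested in each population (2 higher and 3 lower in ALDHbr, 1 higher and 2 lower in ALDHneg cells with the block). NQO1 is also a target of the aryl hydrocarbon receptor. Of that receptor and its targets CYP1A1 fell in all 4 comparisons, with log2 fold changes of -3.63 and -3.35 in SUM159 and -2.08 and -2.57 in SW620, and so did CYP1B1, with -2.88, -2.37, -1.69 and -2.31 in the same order, while ALDH3A1 (0.41 ± 0.07) and TIPARP (0.37 ± 0.07) rose in SW620 ALDHbr cells. TIPARP fell in SUM159, with log2 fold changes of -0.75 in ALDHbr and -1.04 in ALDHneg cells (given after its values were seen). Over the list, 3 of 5 tested genes of this list fell in each SUM159 population (4 with the block), 2 of 6 rose and 2 fell in SW620 ALDHbr cells and 2 of 6 fell in SW620 ALDHneg cells.

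Genes whose log2 CPM ran most like that of a member over the 12 libraries of a line were named by Pearson r among genes whose log2 CPM averaged 1 or more. In SW620 these were OSGIN1, SQSTM1 and HMOX1 for AKR1C1 (r = 0.9995, 0.998 and 0.998), ANXA5, PHGDH and YARS1 for NQO1 (0.997, 0.997 and 0.9965) and KRT20, TNFRSF10D and JUN for AKR1B10 (0.995, 0.995 and 0.994), out of 11166 genes. In SUM159 they were TRIM26, URB1 and DUSP2 for AKR1C1 (0.984, 0.980 and 0.969), out of 11605. The 12 libraries of a line share the contrasts of NIF with DMSO and of ALDHbr with ALDHneg cells, so that genes that move with either correlate. In SUM159, AKR1C1 differed more between the populations (log2 1.41 in DMSO and 1.27 under NIF) than with NIF (0.87 in ALDHbr and 1.00 in ALDHneg cells).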

How the data were processed

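The authors deposited a table of read counts per gene for the 24 libraries, not normalized. Per the labels and methods, cells were treated for 30 h, sorted, and total RNA was made into stranded libraries. FastQC, STAR and the build GRCh38 are named in the submitters' processing notes. Versions, the counting tool, its annotation, its use of strand and its handling of reads that match several genes are not given in the sources used here, nor is the final NIF concentration. Of 28307 genes 4579 had no count, and 234 rows carried no Entrez number.

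Each line was fitted on its 12 libraries in 4 groups with edgeR 4.0.16 in R 4.3.3 (filterByExpr, TMM, quasi-likelihood F test, Benjamini-Hochberg adjustment over all genes tested, threshold 0.05), and lines were compared in a fit of all 24 libraries. CPM values use TMM-scaled library sizes within a line. Total counts of 30253187 to 43127948 leave genes under about 20 reads imprecise by counting error alone. Replicates are independent experiments, and replicate pairs differed by more than sampling noise (chi-square per gene 1.97 to 46.1). In SUM159, libraries with the same number deviated together (r = 0.125 to 0.451, over 0.1 in 18 of 18 pairs), so blocked values are given beside SUM159 results where they change a call or a count. The block is the pairing taken from the replicate numbers of the labels.

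Alternatives were DESeq2 1.42.0, RLE or library-size scaling, no filter, the block, near-identical copies summed, other sets of libraries and leaving out each library. The scripts were tested on simulated data. All 10 members are named, and from each further list at most the 2 called genes with the highest and the 2 with the lowest change. The members and lists were chosen with earlier results of these data known. Sequences and positions are from RefSeq tables (GRCh38.p14), coding identities from GENCODE transcripts. No promoter window was used for AKR1B10 and CBR3. The genes most like NQO1 in SUM159 are not reported here.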

Additional observations from a re-analysis of the deposited data

Results flagged for a closer look

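The response to NIF differed between the lines by the test of the difference itself (edgeR, fit of all 24 libraries, n = 3 per group). Line and NIF dose cannot be told apart in it. In ALDHbr cells the log2 response in SW620 exceeded that in SUM159 by 2.664 for AKR1C1, 2.586 for CBR3, 2.375 for AKR1C2, 1.682 for AKR1B1 and 1.287 for AKR1C3. In ALDHneg cells it did so by 2.681 for CBR3, 2.672 for AKR1C1, 2.352 for AKR1C2, 1.437 for AKR1C3, 1.221 for AKR1B1, 0.9498 for PTGR1, 0.5261 for NQO1 and 0.4118 for AKR1A1.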

How the results depend on the processing

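Of 1626 values of single members under an alternative, 1508 kept their direction and their side of the threshold, 55 lost the call, 50 gained it and 13 changed sign, 12 of these in values that were not called. Counts of members are given here out of those tested. For NIF in SUM159 ALDHneg cells the count of 1 was 4 with DESeq2, 3 with library-size scaling, 5 with no filter, 6 with the replicate block, 2 with only the 6 libraries compared and 4 with all 24, and ran from 1 to 3 when a library was left out. With copies summed it was 3, but these were a single test of the AKR1C sum, read for each of AKR1C1, AKR1C2 and AKR1C3. In SUM159 ALDHbr cells the count of 6 ran from 1 to 6 when a library was left out. For the populations of SW620 the count of 3 in DMSO was 1 with all 24 libraries and ran from 2 to 6, and the count of 2 under NIF was 0 with all 24 libraries and ran from 1 to 3. The number of all genes called higher differed between some of these fits too. For NIF it was 164 in SUM159 ALDHneg cells, and 912 with the block. In SUM159 ALDHbr cells it was 140, and 70 without DMSO replicate 3. For the SW620 populations in DMSO it was 760, and 2626 without ALDHbr DMSO replicate 2. For the other fits named so far it is not given here. A gain or loss of members is thus not to be read as particular to the members. The cause of these shifts was not tested. The fits that leave a library out also have fewer samples. With the replicate block 8 and 7 members differed between the SUM159 populations in DMSO and NIF (6 and 6 without it), and 7 in the line difference of the ALDHbr response (5 without it). Of all genes, 36% and 35.2% differed between these populations with the block, against 23% and 21.9% without it. In the line difference 2329 of all genes had a larger response in SW620 with the block, against 2018 without it. In SW620 libraries share only a number (r = -0.278 to 0.214, over 0.1 in 1 of 18 pairs), and the block left the counts at 9, 10, 3 and 2. With copies summed, AKR1C2 was read as the AKR1C sum, at 0.148 between SW620 populations in DMSO and 0.879 between lines in ALDHbr cells, opposite in sign to AKR1C2 alone. With a library left out, uncalled log2 values crossed 0, from -0.0569 to 0.0419 for AKR1B1 and -0.038 to 0.225 for CBR3 (NIF, SUM159 ALDHbr), -0.00564 to 0.168 and -0.0257 to 0.128 for AKR1A1 (SUM159 populations, DMSO and NIF), -0.36 to 0.0337 for AKR1B1, -0.158 to 0.0123 for AKR1C2 and -0.47 to 0.233 for CBR3 (SW620 populations, DMSO) and -0.0529 to 0.0138 for NQO1 (the same, NIF). DESeq2 gave AKR1B10 no adjusted p between lines. AKR1B1 and CBR3 in SW620 and AKR1B10 in SUM159 rest on few reads, which limits their fold changes.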
